A study of Mus musculus with 3 samples.

Results

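Krt5, Krt14, Krt15, Krt1, Krt10, Krt77, Krt16 and Krt17 are 8 of the 19165 genes in the deposited single-cell table of mouse dorsal skin, chosen by name as the keratins of the basal and suprabasal epidermis and of its stress and appendage states, and all 8 were found. They are described in epithelial cells, defined as cells with a UMI of at least 3 of 5 epithelial genes (Perp, Trp63, Sfn, Cdh1 and Dsp). A UMI (unique molecular identifier) tags 1 captured transcript, so that each transcript is counted once. The gate held 412 of 5962 cells in the E13.5 library (6.91%), 1137 of 5208 in the E16.5 library (21.8%) and 1646 of 5065 in the P0 library (32.5%). All 3 libraries came from pooled male C57BL/6 mice, with embryonic skin digested in trypsin and P0 skin in collagenase IV. The study followed the skin through hair follicle formation. With 1 library per stage nothing here is replicated and no p-value is given, and the digestion of P0 skin cannot be told apart from its stage. The libraries held 53334740 UMIs (E13.5), 66239195 (E16.5) and 46599806 (P0).

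Keratins are the intermediate filament proteins of epithelia, and each filament pairs a type I with a type II chain. In the epidermis the dividing basal layer makes type II Krt5 with type I Krt14 and also type I Krt15. Cells that leave the basal layer switch to type II Krt1 and type I Krt10, and Krt77 is a further type II keratin of suprabasal cells. Type I Krt16 and Krt17 are known from wounded or hyperproliferative epidermis and from skin appendages, and Krt17 is also known from the early embryonic ectoderm, where a transient outer layer called the periderm covers the skin.

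The genes lie in the 2 keratin clusters of the mouse genome (GRCm38, GENCODE vM21), all on the minus strand. The type I genes are on chromosome 11, with Krt10 at 99385254-99389364, Krt15 at 100131758-100135928, Krt14 at 100203162-100207548, Krt16 at 100246091-100248902 and Krt17 at 100256217-100261029. The type II genes are on chromosome 15, with Krt5 at 101707070-101712898, Krt1 at 101845426-101850794 and Krt77 at 101858731-101869705. The gene Gm11940 is annotated as antisense to Krt10, and a microRNA gene lies opposite Krt5. In the last 500 bases of the main transcript, where 3' reads fall, no 31-base word of Krt5, Krt15, Krt1, Krt10 or Krt77 occurs in a transcript of another gene. For Krt14 and for Krt17 17.2% of these words do, all of them shared between Krt14 and Krt17. For Krt16 32.6% do, most of them shared with Gm11597, so the counts of these 3 keratins are less certain. How reads that match several genes were counted is not given in the sources used here.

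The 250 bases before the RefSeq start of Krt5, Krt10 and Krt77 (GRCm38.p6) are printed because the first is a keratin of basal cells and the others are keratins of suprabasal cells. They lie at chr15:101712906-101713155 for Krt5, chr11:99389365-99389614 for Krt10 and chr15:101869706-101869955 for Krt77. Capitals mark TATAAA, a form of the TATA box. Both strands of the 3 windows were searched for it, for the AP-1 motif TGANTCA and for the AP-2 motif GCCNNNGGC. They were also searched for GGGCGG, the core of the GC box. The marked TATAAA was the only match, and other forms of the TATA box were not searched for.
Krt5: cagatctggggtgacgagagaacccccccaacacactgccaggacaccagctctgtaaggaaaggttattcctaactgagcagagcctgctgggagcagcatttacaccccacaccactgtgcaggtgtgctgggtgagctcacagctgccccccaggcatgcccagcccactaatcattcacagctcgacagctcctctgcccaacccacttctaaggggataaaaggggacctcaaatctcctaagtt
Krt10: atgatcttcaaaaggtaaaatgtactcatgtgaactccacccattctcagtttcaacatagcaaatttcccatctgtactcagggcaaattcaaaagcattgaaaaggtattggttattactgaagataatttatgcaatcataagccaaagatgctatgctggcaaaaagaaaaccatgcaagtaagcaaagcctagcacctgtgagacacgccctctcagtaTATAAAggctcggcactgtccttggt
Krt77: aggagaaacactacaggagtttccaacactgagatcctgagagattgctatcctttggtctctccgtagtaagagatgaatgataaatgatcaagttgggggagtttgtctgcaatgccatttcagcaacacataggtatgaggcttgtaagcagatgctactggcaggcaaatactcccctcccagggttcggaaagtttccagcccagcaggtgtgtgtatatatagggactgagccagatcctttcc
The TATAAA of Krt10 covers the bases from 26 to 21 before the start. Of 32851 RefSeq promoter windows of this length, 12.4% hold TATAAA, 6.75% the motif of AP-1, 13.7% that of AP-2 and 32.7% that of the GC box. The RefSeq entry for Krt14 starts within the gene, at the start of a noncoding transcript, and is not printed. Promoters of Krt15, Krt1, Krt16 and Krt17 were not used here.

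Levels are given as UMIs per 1000000 UMIs of a group of cells (CPM) with exact 95% Poisson intervals, which cover counting error only. Since a transcript is counted once from its 3' end, levels of different genes were compared without scaling to length. The genes of the epithelial gate were not seen alike at the 3 stages. Trp63, the master regulator of stratified epithelia, had a UMI in 28.4% of gated cells at E13.5, against 87.5% of those of E16.5 and 83.0% of those of P0, with median depths of 8880, 14083 and 10022 UMIs. Exactly 3 of the 5 gate genes were seen in 207, 177 and 411 of the gated cells at the 3 stages, and a further 369, 680 and 442 cells had 2. Of the gated cells 50.2%, 48.5% and 21.1% also passed the gate of another lineage, mostly dermal, and each main value was therefore also computed without them. The libraries shared between 32 and 44 cell barcodes in pairs, of which at most 2 were epithelial in both.

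The 3 basal keratins were low at E13.5 and high at E16.5 and P0. In epithelial cells Krt5 stood at 557 CPM (535 to 580) at E13.5, 2142 (2121 to 2163) at E16.5 and 2274 (2254 to 2294) at P0. Krt14 stood at 630 (606 to 654), 3732 (3705 to 3760) and 4065 (4038 to 4091). Krt15, a type I keratin of basal cells and later of hair follicle stem cells, stood at 151 (140 to 163), 2098 (2077 to 2119) and 2966 (2943 to 2988). The step to E16.5 was thus largest for Krt15 and smallest for Krt5. As log2 of the ratio of CPM with 10 added to each, E16.5 over E13.5 was 3.71 (3.61 to 3.82) for Krt15, 2.55 (2.49 to 2.60) for Krt14 and 1.92 (1.86 to 1.98) for Krt5. From E16.5 to P0 the log2 difference was 0.50 for Krt15, 0.12 for Krt14 and 0.09 for Krt5. The last 2 turned to -0.09 each without cells of another gate, so no direction is given for them.

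**Figure D1:**
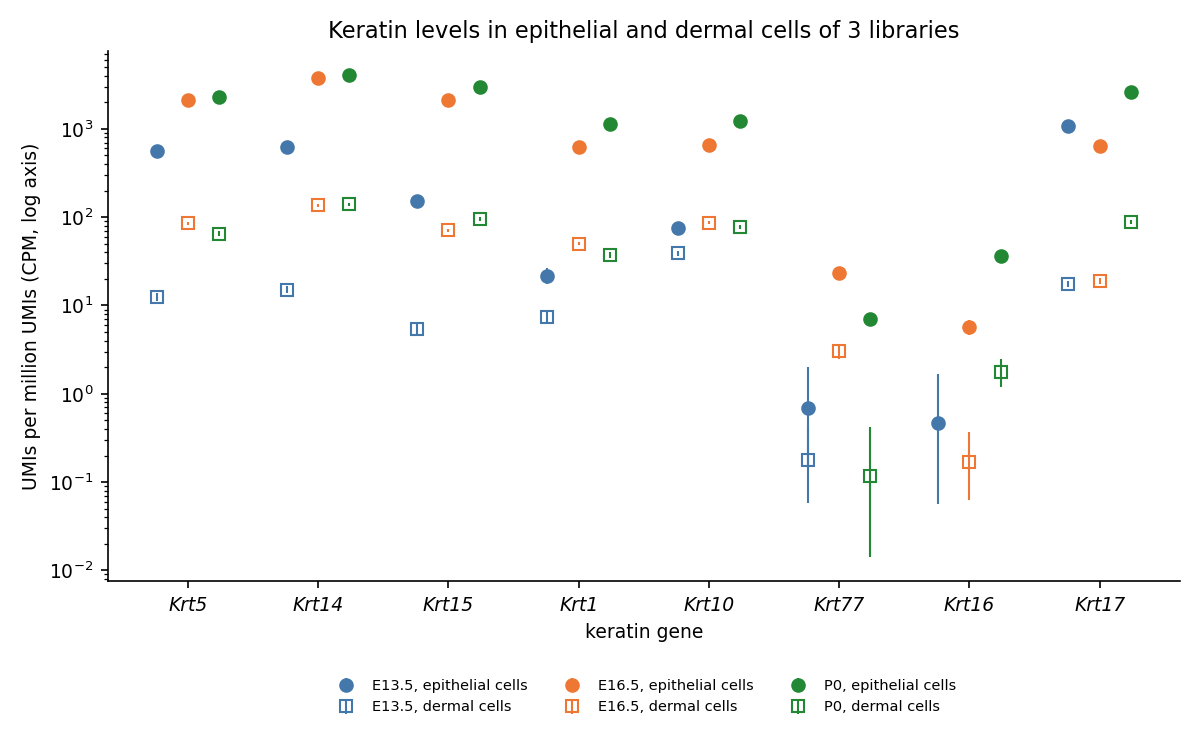
Level of the 8 keratins (CPM, log axis) in epithelial cells (filled circles) and in cells that passed only the dermal gate (open squares) of the E13.5, E16.5 and P0 libraries, with exact 95% Poisson intervals and levels of 0 left out. Krt5, Krt14 and Krt15 step up between E13.5 and E16.5, Krt17 is lower at E16.5 (647 CPM) than at E13.5 (1082) and P0 (2587), and the dermal cells carry each of the abundant keratins at a lower level.

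The suprabasal keratins were also lowest at E13.5. Krt1 stood at 21.8 CPM (17.6 to 26.7) at E13.5, 617 (606 to 629) at E16.5 and 1123 (1109 to 1137) at P0. Krt10 stood at 74.9 (66.9 to 83.5), 662.5 (651 to 674) and 1239 (1225 to 1254). These partners were close to each other at E16.5 and P0, whereas at E13.5 Krt10 was the higher of them. The log2 difference of E16.5 over E13.5 was 4.30 (4.10 to 4.50) for Krt1 and 2.99 (2.85 to 3.13) for Krt10, and that of P0 over E16.5 was 0.85 and 0.89. Among cells with at least 2500 genes the latter were 1.05 and 1.08. Krt77 differed from both in its course, with 3 UMIs in 412 cells at E13.5, 23.3 CPM (21.1 to 25.6) at E16.5 and 7.0 (5.94 to 8.18) at P0. Its CPM at E16.5 was 33.5 times that at E13.5 (11.4 to 163), and its log2 difference of P0 over E16.5 was -0.97 (-1.10 to -0.84). A single cell held 140 of the 436 Krt77 UMIs at E16.5, and without it the level was 15.8 CPM. Without cells of another gate the log2 difference of P0 over E16.5 was -1.12.

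Krt16 and Krt17 ended higher at P0 than at E16.5. Krt16 had 2 UMIs at E13.5 and stood at 5.66 CPM (4.63 to 6.85) at E16.5 and 36.2 (33.7 to 38.8) at P0, a log2 difference of 1.56 (1.43 to 1.69) between the later stages. Krt17 stood at 1082 (1051 to 1113), 647 (635 to 658) and 2587 (2566 to 2608). It was the only member lower at E16.5 than at E13.5, by 0.73 on the log2 scale, which is under 2-fold, and its log2 difference of P0 over E16.5 was 1.98. In dermal cells too Krt17 was higher at P0 (87.2 CPM) than at E16.5 (18.8).

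Counted over the members, 6 of 8 were higher by at least 2-fold at E16.5 than at E13.5 and 0 were lower, against a background of 2.23% higher and 3.19% lower among the 11806 genes with at least 50 UMIs over both groups. The median log2 difference was 2.24 over the 8 members and -0.13 over all genes tested. From E16.5 to P0 2 of 8 were higher, Krt16 and Krt17, and 0 lower, against 1.73% higher and 2.17% lower of 12452 genes. Here the median was 0.68 over the members and -0.08 over all genes. Genes that anchor basal cells to the basement membrane changed at the same step as Krt5 and Krt14: all 5 listed (Itga6, Itgb4, Col17a1, Dst and Itga3) were higher by at least 2-fold at E16.5 than at E13.5, with a median log2 difference of 1.87, and none of the 5 was past 2-fold from E16.5 to P0. Col17a1, a hemidesmosome collagen, stood at 4.4 CPM in E13.5 cells, 168 CPM in E16.5 cells and 119 CPM in P0 cells. The rise to E16.5 was not particular to anchoring genes. Of the 5 genes of the follicle list given below, 3 were higher and 0 lower (median 1.35). Of the 5 of the periderm list, 3 were higher and 2 lower (median 1.93). Without cells of another gate 3 of 4 follicle genes were higher (median 1.59). For the periderm list 1 was then higher and 2 lower (median 0.35). Of the 5 suprabasal genes 4 could be compared and were higher at E16.5, among them Krtdap (149 to 1208 CPM) and Calm4 (1.16 to 137 CPM). Having 2 of these genes does not set apart cells without basal keratins, as 70.0% of epithelial cells did at E16.5. Cells that passed this list alone had Krt14 at 4629 CPM at E16.5 and 8856 at P0. In cells of no list it was at 3289 and 3845. Krt10 was also higher in them, at 577 against 89.1 CPM at E16.5 and 3517 against 86.4 at P0. From E16.5 to P0 Calm4 was higher (437 CPM at P0) and Lor, which encodes the cornified envelope protein loricrin, was lower (95.3 to 6.33 CPM), with 875 of its 1784 E16.5 UMIs in 1 cell.

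The 8 members made up most of the keratin transcripts of the table, which lists 42 keratin genes. In epithelial cells they held 84.5% of the keratin UMIs of E13.5, 96.1% of those of E16.5 and 95.1% of those of P0. As a share of all UMIs in these cells they held 0.252%, 0.993% and 1.43%. The leading keratin was Krt17 at E13.5, with 36.3% of keratin UMIs, and Krt14 at E16.5 (36.1%) and P0 (27.0%). The highest keratins outside the members were Krt7 at E13.5 (204 CPM) and E16.5 (106 CPM), a keratin of simple epithelia, and Krt79 at P0 (545 CPM). Krt14, Krt15, Krt17 and Krt5 filled the first 4 places at P0 in that order, and no 2 of them had overlapping counting intervals.

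Basal and suprabasal keratins differed in how their transcripts were spread over cells. At E16.5 50% of the Krt14 UMIs lay in 255 of 1137 epithelial cells, but 50% of the Krt1 UMIs lay in 12 cells and 50% of the Krt10 UMIs in 14. At P0 the numbers were 215 of 1646 cells for Krt14, 27 for Krt1 and 26 for Krt10. Krt1 and Krt10 were thus carried by a few cells with very many copies, up to 1196 Krt1 UMIs in a cell at E16.5 and 1352 Krt10 UMIs at P0. Krt15 was spread nearly as widely as Krt14, with 50% in 203 and 179 cells, and Krt17 in 84 cells at E16.5 and 216 at P0. Krt77 was the most concentrated at both stages, with 50% in 3 cells at E16.5 and 4 at P0, and 50% of the Krt16 UMIs lay in 14 cells at each of these stages. The median epithelial cell held 0.52 Krt1 UMIs per 10000 at E16.5 and none at P0, against 37.4 and 22.9 of Krt14.

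Keratin UMIs were also seen outside the epithelium, which sets a floor for these levels. In droplet data transcripts released by broken cells (free RNA) are counted in cells that do not make them, and endothelial and immune cells are not known to make these keratins. How many of the keratin UMIs of these cells came from free RNA was not tested. After every cell was thinned to 3500 UMIs, Krt14 had a UMI in 39.1% of endothelial cells at E16.5 and 34.1% at P0, against 90.4% and 92.2% of epithelial cells. For Krt10 the shares were 20.1% and 14.1% of endothelial cells against 33.3% and 34.7% of epithelial cells. Before thinning the median depth was 12448 UMIs in endothelial and 14083 in epithelial cells of E16.5, and 8773 and 10022 UMIs in those of P0. A single UMI of Krt14 or Krt10 in a cell is therefore close to background at these stages, and the analyses of single cells below used at least 3 or at least 10 UMIs. At E13.5 the background was lower, with Krt14 in 5.43% of endothelial cells against 59.0% of epithelial cells.

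Krt10 was spread over lineages in another way than Krt14 at E13.5. There it stood at 74.9 CPM in epithelial cells, 53.7 (42.2 to 67.5) in cells that passed only the neural gate, 41.3 (31.7 to 52.9) in muscle cells, 40.0 (24.8 to 61.2) in Schwann cells and 38.9 (36.7 to 41.3) in dermal cells. It stood at 17.5 (10.9 to 26.4) in endothelial cells and 12.6 (8.10 to 18.8) in immune cells of the same library. Krt14 was at 18.9, 11.8, 5.72, 15.1, 10.3 and 21.1 CPM in these 6 groups, in the same order. The ratio of Krt10 to Krt14 UMIs was thus 2.58 (2.31 to 2.90) in dermal cells, 1.69 (0.82 to 3.66) in endothelial cells, 0.60 (0.35 to 1.02) in immune cells and 0.119 (0.106 to 0.133) in epithelial cells. A UMI of Krt10 was seen in 12.7% (11.6 to 13.9) of thinned dermal cells and 4.15% (1.91 to 7.73) of thinned immune cells. At E16.5 the ratio in dermal, endothelial and immune cells lay between 0.40 and 0.64, against 0.177 in epithelial cells. At P0 it was 0.549 in dermal and 0.305 in epithelial cells, so that at all 3 stages it was higher in dermal than in epithelial cells. The other groups did not differ clearly from epithelial cells at P0. The ratio was 0.386 (0.299 to 0.493) in endothelial cells and 0.173 (0.075 to 0.354) in immune cells, the latter on 9 Krt10 UMIs. The source of Krt10 outside the epithelium at E13.5 was not tested.

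**Figure D2:**
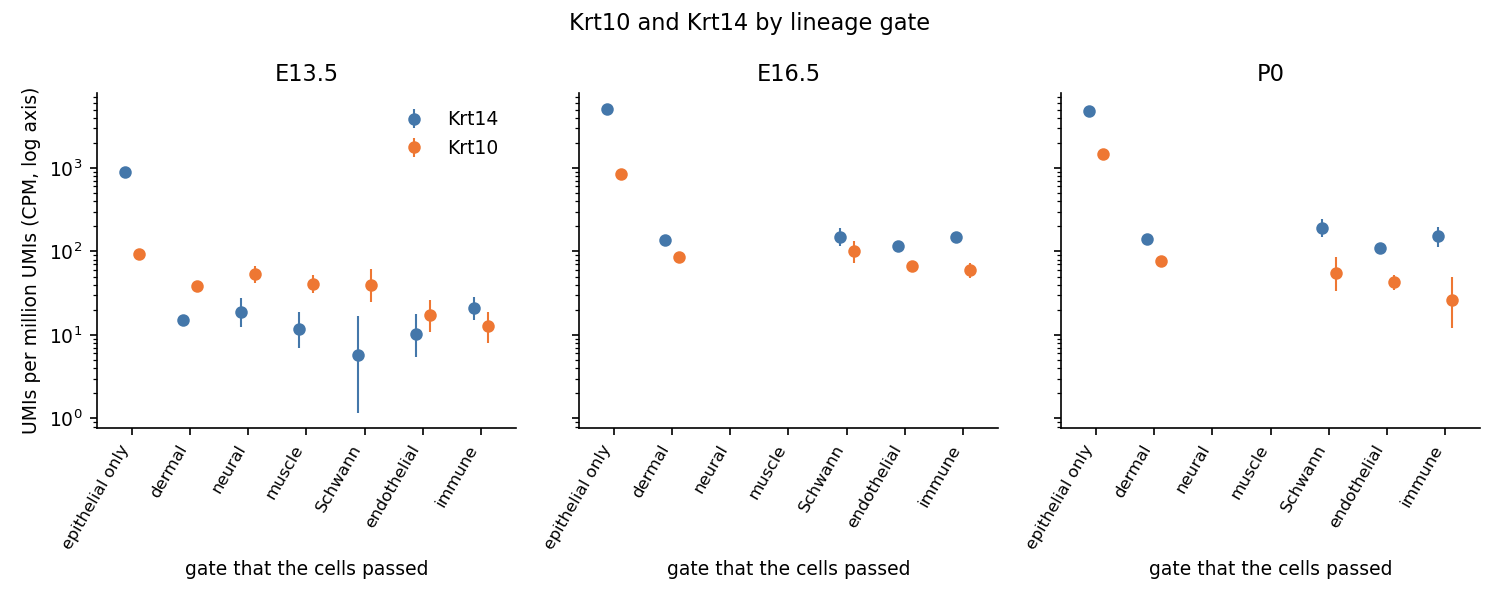
Level of Krt14 and Krt10 (CPM, log axis) in cells that passed only the gate named on the axis, in each library, with exact 95% Poisson intervals; groups under 20 cells are left out. At E13.5 Krt10 lies above Krt14 in dermal, neural, muscle and Schwann cells (38.9 against 15.1 CPM in dermal cells), and at E16.5 and P0 Krt14 is the higher of them in the groups shown.

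At E13.5 Krt5 varied more closely with Krt17 than with Krt14. Across the 412 epithelial cells the Pearson correlation of log values was 0.62 for Krt5 with Krt17, 0.12 for Krt5 with Krt14 and -0.23 for Krt14 with Krt17. At E16.5 the correlation of Krt5 with Krt14 was 0.90 over 1137 cells, and at P0 it was 0.83 over 1646 cells, while Krt5 with Krt17 was at 0.17 and 0.20. The cells of a correlation share a library and its free RNA, and the values are given as a description. Without cells of another gate the E13.5 values were 0.58, -0.02 and -0.36. In cells thinned to 3500 UMIs they were 0.51, 0.12 and -0.18. Among the 241 cells at E13.5 that passed none of 3 lists of suprabasal, follicle and periderm genes, they were 0.48, 0.27 and -0.18.

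Counting cells gave the same contrast. With a keratin called on at 3 or more UMIs in a thinned cell, 46 of 123 Krt5 cells at E13.5 had Krt14 on (37.4%, 28.8 to 46.6, exact binomial interval). At E16.5 825 of 859 did (96.0%, 94.5 to 97.2), and among the P0 cells 1060 of 1165 (interval 89.2 to 92.6%). Of the cells with Krt17 on, 23.6% (17.3 to 30.9) had Krt14 on at E13.5, and 85.5% and 85.7% did at the later stages. Among all epithelial cells Krt14 was on in 28.4% of those of E13.5, in 80.0% of those of E16.5 and in 78.3% of those of P0. Krt5 and Krt14 are filament partners, and at E13.5 both were less abundant than later; the part of this lower level in the E13.5 share was not tested. At 1 or more UMIs the share of Krt5 cells with Krt14 at E13.5 was 60.7% (54.8 to 66.3), still below the 95.9% at E16.5.

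**Figure D3:**
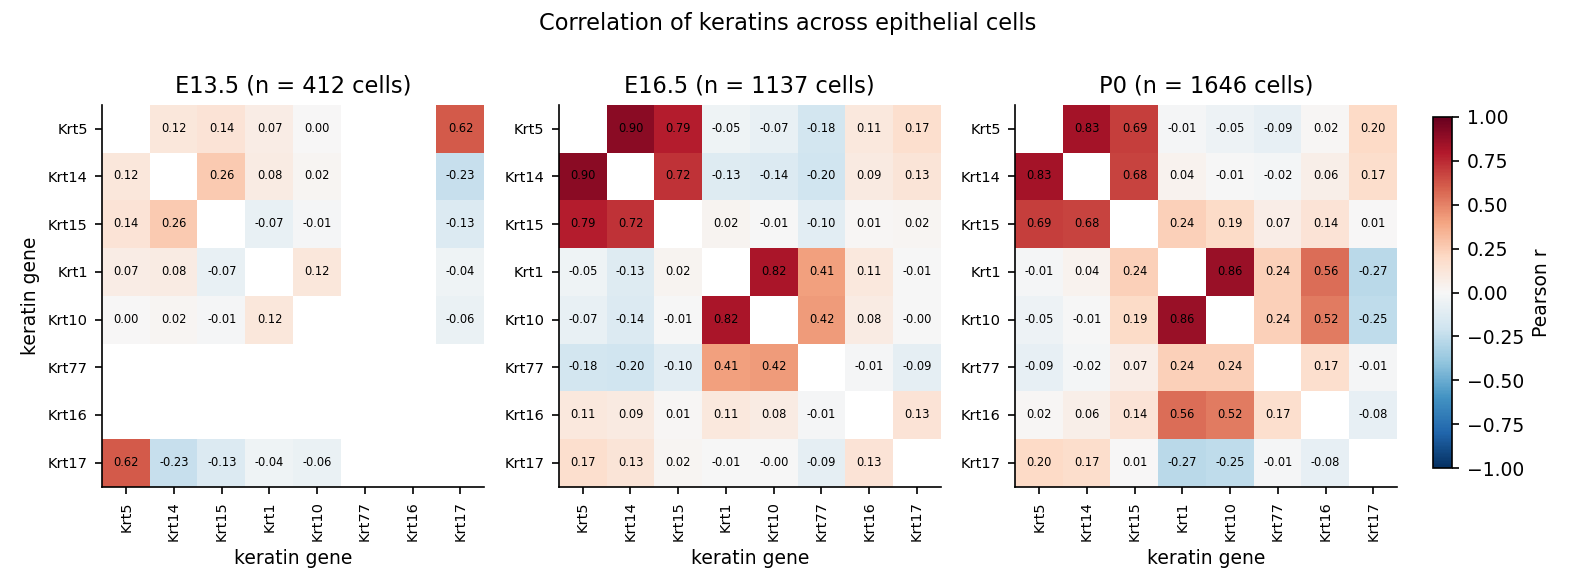
Pearson correlation of log values between keratins across the epithelial cells of each library (red positive, blue negative), with the value printed in each square; the diagonal is blank, and so are Krt77 and Krt16 at E13.5, which had 3 and 2 UMIs. The square of Krt5 and Krt14 goes from 0.12 at E13.5 to 0.90 and 0.83, and that of Krt5 and Krt17 from 0.62 to 0.17 and 0.20.

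The genes most like Krt17, Krt5, Krt14 and Krt15 across E13.5 cells are given next. Those with the highest correlation to Krt17 were Gabrp (0.72), Slc2a3 (0.70), Penk (0.70), Cldn3 (0.66) and Anxa1 (0.66), and Slc2a3 and Anxa1 were also among the 5 highest for Krt5 (both 0.58). For Krt14 they were Bcam (0.39), Ifitm3 (0.39), Kremen2 (0.38), Pdgfa (0.37) and Hoxa7 (0.36). For Krt15 they were Gjb6 (0.56), Cxcl14 (0.50), Wnt3 (0.45), Kremen2 (0.44) and Fgfr2 (0.43), so that Kremen2, a receptor of Wnt inhibitors, stood with Krt14 and Krt15 alike. The periderm list (at least 2 of Krt4, Krt6a, Sprr1a, Cldn4 and Grhl3) was passed by 151 of the 412 cells (36.7%), mostly through Cldn4, a tight junction protein, and Grhl3, an epidermal barrier factor, and by 2 of 346 endothelial and immune cells (0.578%). In the 113 cells that passed this list alone Krt17 was at 1953 CPM (1881 to 2027), against 443 (414 to 473) in the 241 cells of no list. Krt5 was at 775 (730 to 823) against 337 (313 to 364). Krt14 was at 617 (577 to 660) against 649 (615 to 685), and Krt15 at 137 (118 to 158) against 201 (182 to 221). The log2 difference was 2.12 for Krt17, 1.18 for Krt5, -0.07 for Krt14 and -0.52 for Krt15, so 2 of 5 members tested were higher by at least 2-fold and 0 lower, where 2.83% of 7417 genes were higher and 1.40% lower. The median was -0.07 over the members tested and 0.01 over all genes. The cells of the list were deeper (median 11509 UMIs against 6296), and the part of depth in passing a list was not tested. Without cells of another gate the log2 difference was 2.13 for Krt17, 0.92 for Krt5 and -1.30 for Krt15.

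The switch from basal to suprabasal keratins was measured in each cell as the share of Krt1 and Krt10 among its UMIs of Krt5, Krt14, Krt1 and Krt10, in cells with at least 10 of these UMIs. At E13.5 1 of 189 cells had a share of 0.5 or above (0.529%, 0.0134 to 2.91). At E16.5 48 of 1012 cells did (4.74%, 3.52 to 6.24) and at P0 84 of 1463 (5.74%, 4.61 to 7.06). The share of such cells at E16.5 and at P0 thus had overlapping intervals. Most cells lay near an end of the scale, with 85.2% under 0.1 and 2.87% at 0.9 or above at E16.5, and 82.3% and 3.21% at P0. Few cells lay near the limit, 16 at E16.5 and 21 at P0 between 0.4 and 0.6. In cells at 0.9 or above Krt1 and Krt10 reached 19307 and 19151 CPM in the E16.5 library and 21160 and 24094 CPM in that of P0. With the keratin level of endothelial and immune cells subtracted as free RNA, 47 of 991 cells at E16.5 (4.74%) and 84 of 1413 at P0 (5.94%) had a share of 0.5 or above.

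**Figure D4:**
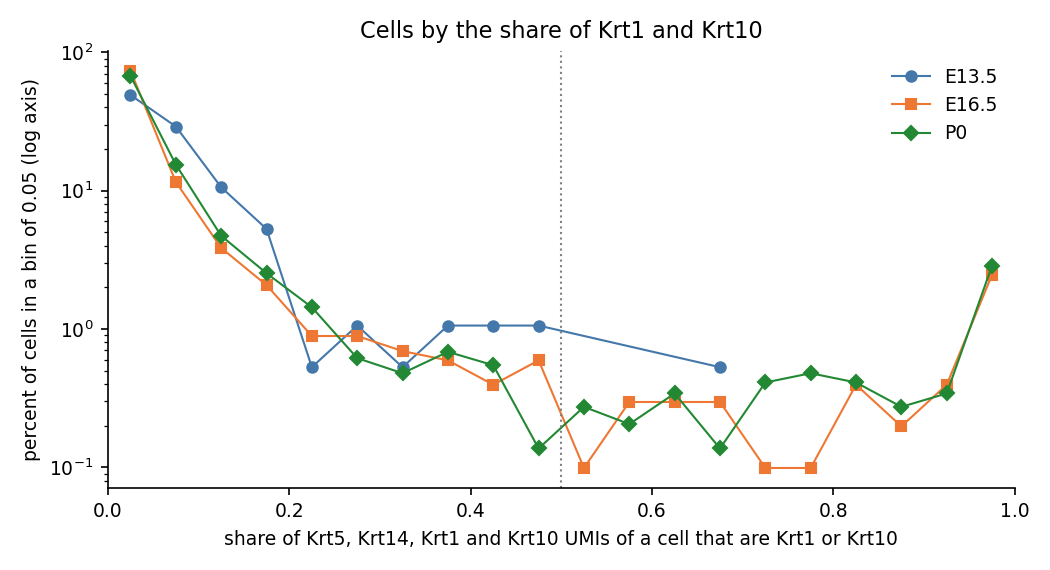
Percent of epithelial cells (log axis) in bins of 0.05 of the share of Krt1 and Krt10 among the UMIs of Krt5, Krt14, Krt1 and Krt10, for cells with at least 10 of these UMIs; bins without cells are left out and the dotted line stands at 0.5. The E16.5 and P0 libraries have a peak at each end with few cells between, and E13.5 has 1 cell to the right of the line.

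Some cells held both sets at once. Of cells with Krt10 on at 3 or more UMIs in a thinned cell, 42 of 76 (55.3%, 43.4 to 66.7) had Krt14 on at E16.5 and 105 of 145 (72.4%, 64.4 to 79.5) at P0. Among all epithelial cells Krt14 was on in 80.0% and 78.3%. Krt1 and Krt10 were on together in 57 of 72 Krt1 cells (79.2%) at E16.5 and 125 of 150 (83.3%) at P0. How many of these cells held free Krt14 was not tested. Cells called as doublets were kept. Leaving them out changed neither direction nor the side of 2-fold for Krt1 and Krt10 between stages. It was not done for the counts of cells with both sets, so the part of doublets in these counts was not tested. Of the cells with a Krt1 and Krt10 share between 0.4 and 0.6, 11 of 16 at E16.5 and 1 of 21 at P0 also passed the gate of another lineage.

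Cells led by Krt1 and Krt10 still held much Krt15 at P0. At a share of 0.9 or above Krt14 was at 549 CPM (496 to 607) at P0, against 4530 (4498 to 4562) in cells under 0.1, as the share itself demands. Krt15, which the share does not use, was at 3784 (3642 to 3931) against 3009 (2983 to 3036), and at 3128 without the highest cell. Of the 2661 UMIs behind the first value 567 and 520 lay in 2 cells. At E16.5 Krt15 was at 635 (558 to 720) in cells at 0.9 or above against 2431 (2405 to 2457) under 0.1. Krt15 was seen in all 47 cells of this kind at P0, from 1.17 to 185 UMIs per 10000 with a median of 12.7, and in 26 of 29 at E16.5, with a median of 4.23. The median of cells under 0.1 was 16.2 at P0 and 22.1 at E16.5, so by the median cell Krt15 was lower at 0.9 or above in both libraries. Krt15 UMIs outnumbered Krt14 UMIs in 38 of the 47 P0 cells (80.9%, 66.7 to 90.9) and in 265 of 1204 cells under 0.1 (22.0%, 19.7 to 24.5). At E16.5 they did in 17 of 29 cells (58.6%, 38.9 to 76.5) and 121 of 862. Since the share uses Krt14 and a fall of Krt14 alone raises these counts, they are a description. In cells from 0.5 to 0.9 Krt15 reached 3469 CPM (3294 to 3651) at E16.5 and 7558 (7321 to 7800) at P0, above its level in each of the other 3 groups of the same library. The E16.5 value rests on 19 cells, of which 13 passed another gate, with 322 and 240 of 1468 UMIs in 2 cells. Their median was 23.0 per 10000, about level with the 22.1 of cells under 0.1. At P0 the median of the 37 cells was 75.6, against 16.2 under 0.1. Without cells of another gate Krt15 was at 696 CPM in cells at 0.9 or above and 2847 under 0.1 at E16.5, and at 3449 and 3441 at P0, so that at P0 it was about level between these groups. The follicle list described below was passed by 16.6% of epithelial cells at E16.5 and 55.9% at P0. Krt15 in cells of this list alone was at 732 and 967 CPM, against 1764 and 2974 in cells of no list. How far such cells set the Krt15 level under 0.1 was not tested.

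Among these cells Krt77 was highest in the E16.5 library and Krt16 in the P0 library, a contrast between single libraries that was not tested. Krt77 was at 962 CPM (866 to 1065) in the 29 cells at 0.9 or above at E16.5 and at 2.82 (2.01 to 3.86) in cells under 0.1. It was at 101 (78.9 to 127) and 1.72 (1.15 to 2.47) at P0. In thinned cells all 8 cells with Krt77 on at E16.5 (63.1 to 100%) and all 3 at P0 (29.2 to 100%) had Krt10 on. At 1 or more UMIs 15 of 24 Krt77 cells at E16.5 (62.5%) and 8 of 13 at P0 (61.5%) had Krt10. A single cell held 140 of the 368 Krt77 UMIs in the E16.5 group, and without it the level was 637 CPM. Krt16 had 0 UMIs in these 29 cells at E16.5, which allows up to 9.64 CPM, and was at 482 (432 to 536) in the 47 cells at P0 against 7.34 (6.11 to 8.75) under 0.1. Its P0 level did not rest on 1 cell, being 411 CPM without the highest of them. In cells from 0.5 to 0.9 at E16.5 Krt16 was at 66.2 CPM (44.0 to 95.6), but 23 of its 28 UMIs lay in 1 cell, and without it the level was 12.3 CPM. Across all epithelial cells at P0 Krt16 correlated with Krt1 (0.56) and Krt10 (0.52) more than with Krt17 (-0.08), although Krt16 and Krt17 are often named together, and at E16.5 the 3 values were 0.11, 0.08 and 0.13.

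Krt17 was lower at 0.9 or above in both libraries, at 118 CPM (85.8 to 157) against 624 (611 to 637) under 0.1 at E16.5 and 445 (397 to 497) against 2833 (2808 to 2859) at P0. In cells from 0.5 to 0.9 it was at 2214 (2075 to 2361) and 2761 (2619 to 2909). The first of these values rests on 937 UMIs, of which 250 and 243 lay in 2 of the 19 cells, and the second on 1408, of which 515 and 369 lay in 2 of the 37. The median cell held 2.25 and 2.76 Krt17 UMIs per 10000.

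**Figure D5:**
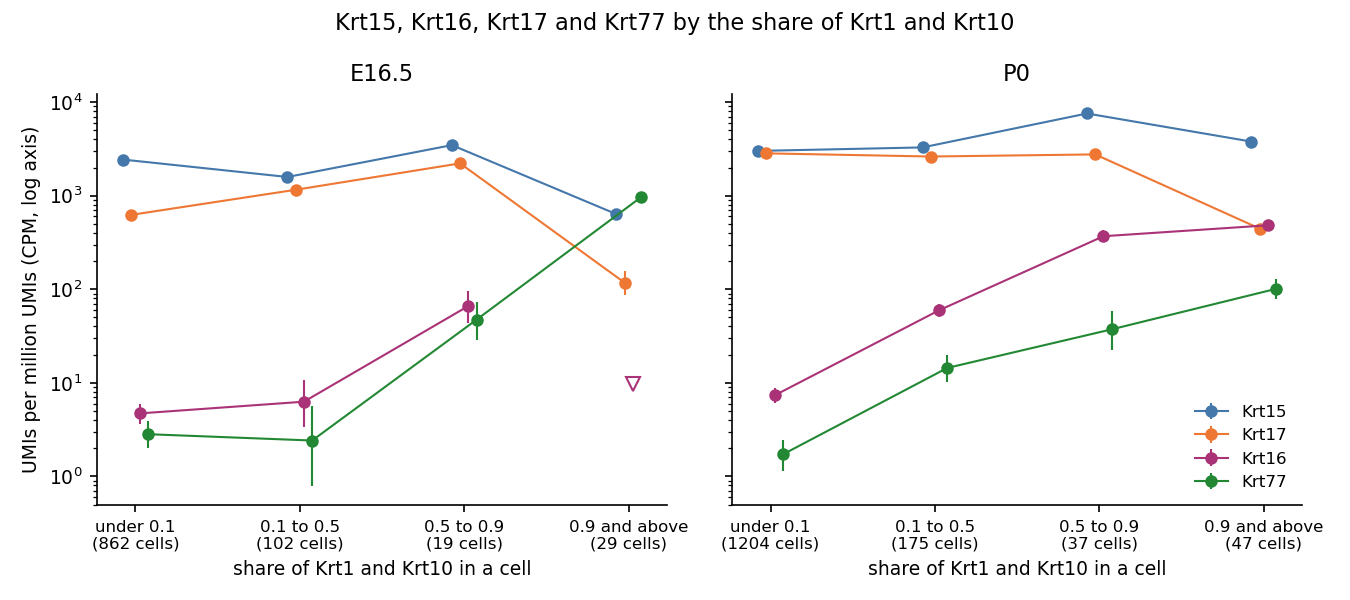
Level of Krt15, Krt17, Krt16 and Krt77 (CPM, log axis) in epithelial cells grouped by their share of Krt1 and Krt10, at E16.5 and P0, with exact 95% Poisson intervals; the open triangle is the upper limit for Krt16, which had 0 UMIs there. Krt15 at 0.9 or above is at 635 CPM at E16.5 and 3784 at P0, Krt77 is at 962 and 101, and the Krt16 point of the E16.5 group from 0.5 to 0.9 rests on 1 cell.

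Pooled at a share of 0.5 or above against under 0.1, 4 of 8 members were higher by at least 2-fold at E16.5 (Krt1, Krt10, Krt77 and Krt16) and 2 lower (Krt5 and Krt14), where 4.66% of 10522 genes were higher and 2.30% lower. At P0 the same 4 were higher and 0 lower, where 3.73% of 10628 genes were higher and 6.97% lower. The share fixes the direction of Krt1, Krt10, Krt5 and Krt14, so nothing is read from them, and the Krt16 value at E16.5 rests on 1 cell. The median over the members was 1.28 at E16.5 and 1.84 at P0, against -0.01 and -0.18 over all genes. It includes the 4 keratins that the share uses, so nothing is read from it either. Basal anchoring genes were lower by at least 2-fold for 5 of 5 at E16.5 (median -1.66) and 2 of 5 at P0 (median -0.99). Cell cycle genes (Mki67, Top2a, Ccnb1, Cdk1 and Birc5) were lower for 1 of 5 at E16.5 (median -0.93) and 5 of 5 at P0 (median -2.63), with Top2a at 143 against 280 CPM at E16.5 and 12.4 against 153 CPM at P0. Of 10 transcription factors (Klf4, Klf5, Ovol1, Grhl1, Tfap2a, Tfap2c, Gata3, Zfp750, Cebpa and Hes1) 5 were higher at E16.5 (median 1.02) and 6 at P0 (median 1.66). Zfp750, a factor of terminal differentiation, was at 132 against 8.40 CPM at E16.5 and 178 against 11.2 CPM at P0. Grhl1, which acts on desmosomal genes, was at 137 against 6.59 and 118 against 25.4 CPM. Klf4, a factor of barrier formation, was past 2-fold at P0 only (627 against 144 CPM), with 259 against 174 CPM at E16.5, and this difference between stages was not tested.

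The suprabasal list was higher in these cells for 4 of 4 genes tested at E16.5 (median 3.69) and 3 of 4 at P0 (median 3.45). Calm4, a calcium-binding protein of the suprabasal layers, was at 1136 against 96.7 CPM at E16.5 and 4919 against 160 CPM at P0. Lor was at 1579 against 23.9 CPM at E16.5 and 10.7 against 7.16 CPM at P0, but 1 cell held 875 of its 1272 UMIs at E16.5. The periderm list was higher for 5 of 5 genes at E16.5 (median 3.83) and 3 of 3 tested at P0 (median 1.80). At E16.5 358 of 360 Krt4 UMIs, 318 of 326 Krt6a UMIs and 209 of 220 Sprr1a UMIs in these cells lay in 1 cell each. Without the highest cell Sprr1a was at 14.4 CPM, so the count at E16.5 rests on 1 cell for each of these genes. Krt4 and Krt6a were not tested at P0. The follicle list (Sox9, Lhx2, Shh, Edar and Lgr5) was lower for 3 of 4 genes tested at E16.5 (median -1.29) and 5 of 5 at P0 (median -2.10).

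The genes most like each keratin across cells of the later stages included known genes of its layer. After each other, Krt1 and Krt10 correlated highest at E16.5 with Elovl4 (0.78 and 0.77), which makes the very long fatty acids of barrier lipids, and with Ly6d (0.77 each). At P0 they did so with Tmprss4 (0.76 each), Fam25c (0.74 and 0.75) and Them5 (0.73 and 0.72). Krt77 correlated highest at E16.5 with Fam25c (0.64), Rdh12 (0.60) and Dgat2 (0.56) and at P0 with Casp14 (0.40), a protease of cornification. Krt5, Krt14 and Krt15 had each other and Lgals7, an epithelial galectin, among their 5 highest at both stages. Not all genes so found were basal ones. Krtdap, a gene of the suprabasal list, was among the 5 highest of Krt15 at E16.5 (0.62). Dmkn was among those of Krt5 (0.71), Krt14 (0.65) and Krt15 (0.66) at that stage. Correlations of Krt77 and Krt16 at E13.5 rest on 3 and 2 UMIs and are not given.

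In cells that passed the follicle list and no other list, Krt17 was higher and Krt14 and Krt15 were lower than in cells of no list. The follicle list was passed at 2 of 5 genes by 189 of 1137 cells (16.6%) at E16.5 and 920 of 1646 (55.9%) at P0, and by 0 of 330 and 0 of 250 endothelial and immune cells. This list alone was passed by 58 cells at E16.5 and 574 at P0, and no list by 271 cells at each of these stages. In cells that passed this list alone Krt17 was at 1503 CPM (1421 to 1589) at E16.5, against 228 (213 to 244) in cells of no list, and at 2567 (2528 to 2606) against 1278 (1232 to 1325) at P0. Krt14 was at 1623 (1538 to 1712) against 3289 (3231 to 3348) and at 1645 (1613 to 1676) against 3845 (3766 to 3925). Krt15 was at 732 (675 to 792) against 1764 (1721 to 1807) and at 967 (943 to 991) against 2974 (2905 to 3045). In cells that passed several lists of any kind Krt15 was at 1913 CPM (1871 to 1955) at E16.5, above cells of no list, and at 2419 (2386 to 2452) at P0. Krt14 was at 2419 (2372 to 2466) and 3139 (3102 to 3177) in them. The cells of the list were deeper, at a median of 13098.5 against 11786 UMIs at E16.5 and 9371.5 against 7221 at P0. The log2 difference was 2.67 for Krt17, -1.01 for Krt14, -1.26 for Krt15 and -0.88 for Krt5 at E16.5, and 1.0, -1.22, -1.61 and -0.94 at P0. At each stage 1 of 6 members tested was higher by at least 2-fold and 2 lower, where 1.52% of 8052 genes were higher and 2.04% lower at E16.5 and 0.587% of 9362 higher and 2.52% lower at P0. The medians over the members tested were -0.54 and -0.89, against 0.05 and 0.02 over all genes. With list genes counted at 2 or more UMIs, the Krt17 difference was 1.84 at E16.5 and 0.58 at P0, and against all other epithelial cells it was 1.81 and 0.60, so at P0 it was past 2-fold only in the first of these comparisons. Sox9, an outer root sheath and stem cell factor of the follicle and itself on the list, was among the genes most like Krt17 at both stages (0.49 and 0.51), beside Sostdc1 (0.48) at P0. The suprabasal list was passed by 21.8% of endothelial and immune cells at E16.5 and its cells were therefore not compared as a group.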

How the data were processed

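Back skin cells of pooled male C57BL/6 mice were sequenced from 3' droplet libraries (10x Genomics), 1 for each stage. Per the labels, the authors used Cell Ranger 2.2.0 and mm10; their methods name Seurat and a minimum of genes per cell. The deposited unit is a natural log, ln(1 + x), where x is a gene's UMI count scaled to 10000 in each cell. All 48197283 values above 0 came back as whole UMIs within 0.001, and no cell had fewer than 3453. All values were computed from these UMIs in Python 3.11.15 with numpy 2.4.6, scipy 1.17.1 and scanpy 1.11.5.

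The members and lists were chosen with earlier results of these data known. Named genes are the 8 keratins, every gene of the lists, the 5 highest other keratins, and for each keratin up to 5 genes with the highest correlation (at least 0.3, with a UMI in at least 5% of cells); epithelial sub-lists needed 2 of 5 genes and lineage gates 3 of 5. Differences are log2 of CPM with 10 added, among genes with at least 50 UMIs in both groups together; their intervals use the delta method. Cells were thinned to 3500 UMIs with a fixed seed, and 1 shallower cell was left out there. Scrublet (expected rate 0.06) called 84 doublets at E16.5, 113 at P0 and 0 at E13.5, where it was treated as not working; doublets were kept in the main values. The log2 differences between stages were tested on simulated counts with known fold changes before use. These were Poisson counts with no added spread between cells or libraries, so the simulation says nothing about such spread. Coordinates are from GENCODE vM21, promoters from RefSeq.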

Additional observations from a re-analysis of the deposited data

Results flagged for a closer look

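The difference between cells with a Krt1 and Krt10 share of 0.5 or above and cells under 0.1 ran in opposite directions at E16.5 and P0 for 2 of the keratins that the share does not use. The log2 difference of Krt15 was -0.19 (-0.26 to -0.12) at E16.5 and 0.83 (0.80 to 0.87) at P0. That of Krt17 was 0.96 (0.86 to 1.05) at E16.5 and -0.99 (-1.06 to -0.92) at P0. Of the 982 Krt17 UMIs in the 48 E16.5 cells 250 and 243 lay in 2 cells, and the median cell held 0.42 Krt17 UMIs per 10000 against 2.34 under 0.1, so by the median cell Krt17 was lower in both libraries (1.5 against 24.4 at P0). The medians of Krt15 were 5.55 against 22.1 at E16.5 and 37.0 against 16.2 at P0. Each stage had 1 library, so neither difference between stages was tested. Without cells of another gate the values were -0.51 and 0.58 for Krt15 and 0.37 and -0.85 for Krt17. Of the 48 cells in the E16.5 group 23 passed the gate of another lineage, against 13 of 84 at P0, and their part in these values beyond the figures just given was not tested. The follicle list was passed by 16.6% of all epithelial cells at E16.5 and 55.9% at P0. At both stages cells of this list alone had less Krt15 and more Krt17 than cells of no list. How far such cells set the levels under 0.1 was not tested.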

How the results depend on the processing

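No paired analysis was possible because each stage has 1 library. The count of keratins higher at E16.5 than at E13.5 was 6 or 7 under all 7 alternatives. From E16.5 to P0 the count of higher keratins was 4 with at least 2500 genes per cell, where Krt1 (1.05) and Krt10 (1.08) passed 2-fold; the count of lower ones was 1, Krt77, with the gate on thinned cells, without cells of another gate, without called doublets and with 1 added to each CPM (-1.60). The log2 difference of P0 over E16.5 changed sign for Krt5 without cells of another gate (-0.0896) and with at least 2500 genes per cell (-0.0128), and for Krt14 without cells of another gate (-0.0923). Cells with a share of 0.5 or above made up 0% at E13.5 with at least 20 UMIs of the 4 keratins (0 of 84 cells, which allows up to 4.30%) and 7.62% at P0 in thinned cells. All alternatives to the sub-list splits were chosen after seeing the data, and so was leaving out cells of another gate in the sub-lists, in the groups by Krt1 and Krt10 share and in the correlations, and taking correlations in cells of no sub-list; correlations in thinned cells were planned. Among the added alternatives, the follicle list against all other epithelial cells at E16.5 turned Krt10 to -0.56, list genes at 2 or more UMIs turned Krt10 to -0.0478, and the periderm list against all other cells turned Krt14 to 0.0157. In all, 39 of 46 alternative values of the counts and shares stayed within their limits, and of the other alternative values 346 kept their direction and side of 2-fold, or moved within their limits, 82 moved further, 13 passed and 3 fell under 2-fold, and 6 changed sign. Depth limits Krt77 and Krt16 at all stages, and at E13.5 also Krt1 and Krt10 in single cells, where 189 of 412 cells had enough UMIs for the share.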
